A study of Homo sapiens with 15 samples.

Results

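The genes described here encode the lysosome and the autophagosome, the compartments in which a cell breaks down what it takes up and what it discards. They were chosen by name, from a list of 39 gene symbols, and not by a threshold on any value: 5 lysosomal membrane proteins, 11 proteases, 8 glycosidases and sulfatases, 6 lipid hydrolases and their activators, 4 parts of the proton pump, 2 transcription factors and 3 autophagosome proteins. Each symbol matched 1 of the 28395 genes in the count table, and all 39 were among the 16740 genes with enough counts to be tested. BEAS-2B, an established human cell line derived from bronchial epithelium, was grown with PET nanoplastics (PET-NPLs) at 50 µg/mL, renewed with the medium, or without particles as passage-matched controls. RNA was sequenced after 24 h (2 control, 2 exposed), after 15 weeks (2 control, 2 exposed) and after 30 weeks (3 control, 4 exposed), 15 samples in all. The labels number the replicates but do not say whether they came from separate cultures, so p-values measure only the spread between these samples. No genotype or other agent separated the groups, and all of them came from 1 cell line.

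Lysosomes are acidified by a proton pump, the V-ATPase, and their hydrolases work best at that low pH. Material reaches them from the cell surface by endocytosis or from the cytoplasm by autophagy, in which a membrane carrying proteins of the LC3 and GABARAP families closes around its cargo and fuses with the lysosome. Many genes of the compartment share a short DNA element that is bound by TFEB and TFE3, transcription factors held in the cytoplasm until lysosomal stress or starvation releases them. Particles that epithelial cells engulf commonly end up in lysosomes.

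The libraries were made from total RNA after removal of ribosomal RNA, and 23143202 to 31459990 counts per sample fell on genes. Levels are given as CPM, counts scaled to a library of fixed size, after TMM scaling, which brings the typical gene of each library to the same level. By the labels, the samples of 24 h and 15 weeks formed batch 1 and those of 30 weeks batch 2. Each comparison of exposed with control cells therefore lay within a batch, whereas the later time and its batch cannot be told apart. Exposed replicate 2 stood apart at 30 weeks, with a chi-square per gene of 71.1 to 109 against the other 3 exposed samples, which differed among themselves by 13.4 to 29.3. The 3 controls of 30 weeks differed from each other by 62.0 to 85.9, while the pairs of earlier samples gave 7.76 to 12.9. The 6 most abundant small noncoding RNAs took 22.3% to 31.0% of counts in the 30-week controls and 17.0% to 21.5% in exposed cells. Epithelial keratins marked the line in the 24 h controls, KRT7 at a mean of 1314 CPM, KRT8 at 482 CPM, KRT18 at 333 CPM and KRT19 at 11 CPM. In the controls of 15 and 30 weeks KRT7 was down to 18.0 and 1.93 CPM and KRT19 to 2.45 and 0.766 CPM, while KRT8 stood at 545 and 150 CPM and KRT18 at 310 and 194 CPM. In exposed cells of 30 weeks these 4 keratins were at 1.92, 2.88, 616 and 338 CPM in the same order. EPCAM, CDH1 and MUC5B stayed under 1 CPM, and KRT5, TP63, FOXJ1, SCGB1A1 and NKX2-1 did not pass the filter on low counts. The 12 airway epithelial markers, 7 of which passed the filter, summed to 314 to 412 CPM in the 30-week controls and to 880 to 1097 CPM in exposed cells. The sum of 10 macrophage markers, of which TYROBP and CD163 had no count in any sample, was 2.24 to 3.04 CPM in those controls and 4.34 to 6.67 CPM in exposed cells. CD14 made up most of it, at means of 1.48 and 4.91 CPM, while CSF1R was at 0.560 and 0.620 CPM and ITGAM at 0.352 and 0.159 CPM. The 9 fibroblast markers summed to 478 to 602 CPM and to 374 to 436 CPM, and the 5 osteoclast markers, of which NFATC1 alone passed the filter, to 4.84 to 8.47 CPM and to 1.51 to 2.57 CPM. The fibroblast markers went both ways. In controls and exposed cells THY1 averaged 388 and 317 CPM and COL1A1 55.3 and 7.35 CPM, but COL1A2 0.312 and 3.20 CPM and POSTN 0.0719 and 0.406 CPM. The part of these marker differences in the results below was not tested.

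Per kilobase of transcript, the highest levels of the 39 in the 24 h controls were those of CD63 (412 CPM per kb), PSAP (228), SQSTM1 (105) and CTSB (84.8), and the lowest was that of CTSS (0.137). The first question was whether cells exposed to particles for 24 h or 15 weeks differed from their controls in these genes. None of the 39 passed the test at either time. The test was edgeR's quasi-likelihood F test with Benjamini-Hochberg adjustment over all 16740 genes and an adjusted p under 0.05, and with it 0% of all genes passed at 24 h and 0% at 15 weeks. Before adjustment, 0 of the 39 reached p under 0.05 at 24 h and 0 at 15 weeks, against 277 and 823 of all genes. DESeq2, limma-voom and limma-voom with 2 surrogate variables (estimated hidden factors) also called 0 members at both times. Of all genes these fits called 0% at 24 h and 0.108%, 0% and 0.0836% at 15 weeks. Log2 fold changes of exposed over control cells ran from -0.35 to 0.24 at 24 h, with a median of 0.01, and from -0.48 to 0.45 at 15 weeks, with a median of -0.02. Changes of this size could not be told from the spread between samples.

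At 30 weeks, 9 of the 39 genes (23.1%) differed between exposed and control cells, a share close to the 23.7% of all genes tested. GABARAPL1, TFEB, CTSZ, GUSB, LGMN and CTSB were higher in exposed cells (6 genes, 15.4%, against 12% of all genes), and CD63, CTSD and SCARB2 were lower (3 genes, 7.69%, against 11.7% of all genes). The median log2 fold change of the 39 was 0.14 and that of all genes 0.01, 28 of the 39 were above 0 (71.8%, against 50.8% of all genes), and the median absolute change was 0.20 against 0.30. For 8 of the 39 (20.5%, against 27.3% of all genes tested) every exposed sample lay on one side of all controls, and 7 of these 8 had also passed the test. The count depended on exposed replicate 2. Without that library 14 of the 39 passed, against 34.2% of all genes. With each library of 30 weeks left out in turn the count ran from 6 to 14, against 14.9% to 34.2% of all genes. In these bulk samples, fewer cells that express a gene and less of its RNA per cell cannot be told apart.

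**Figure D1:**
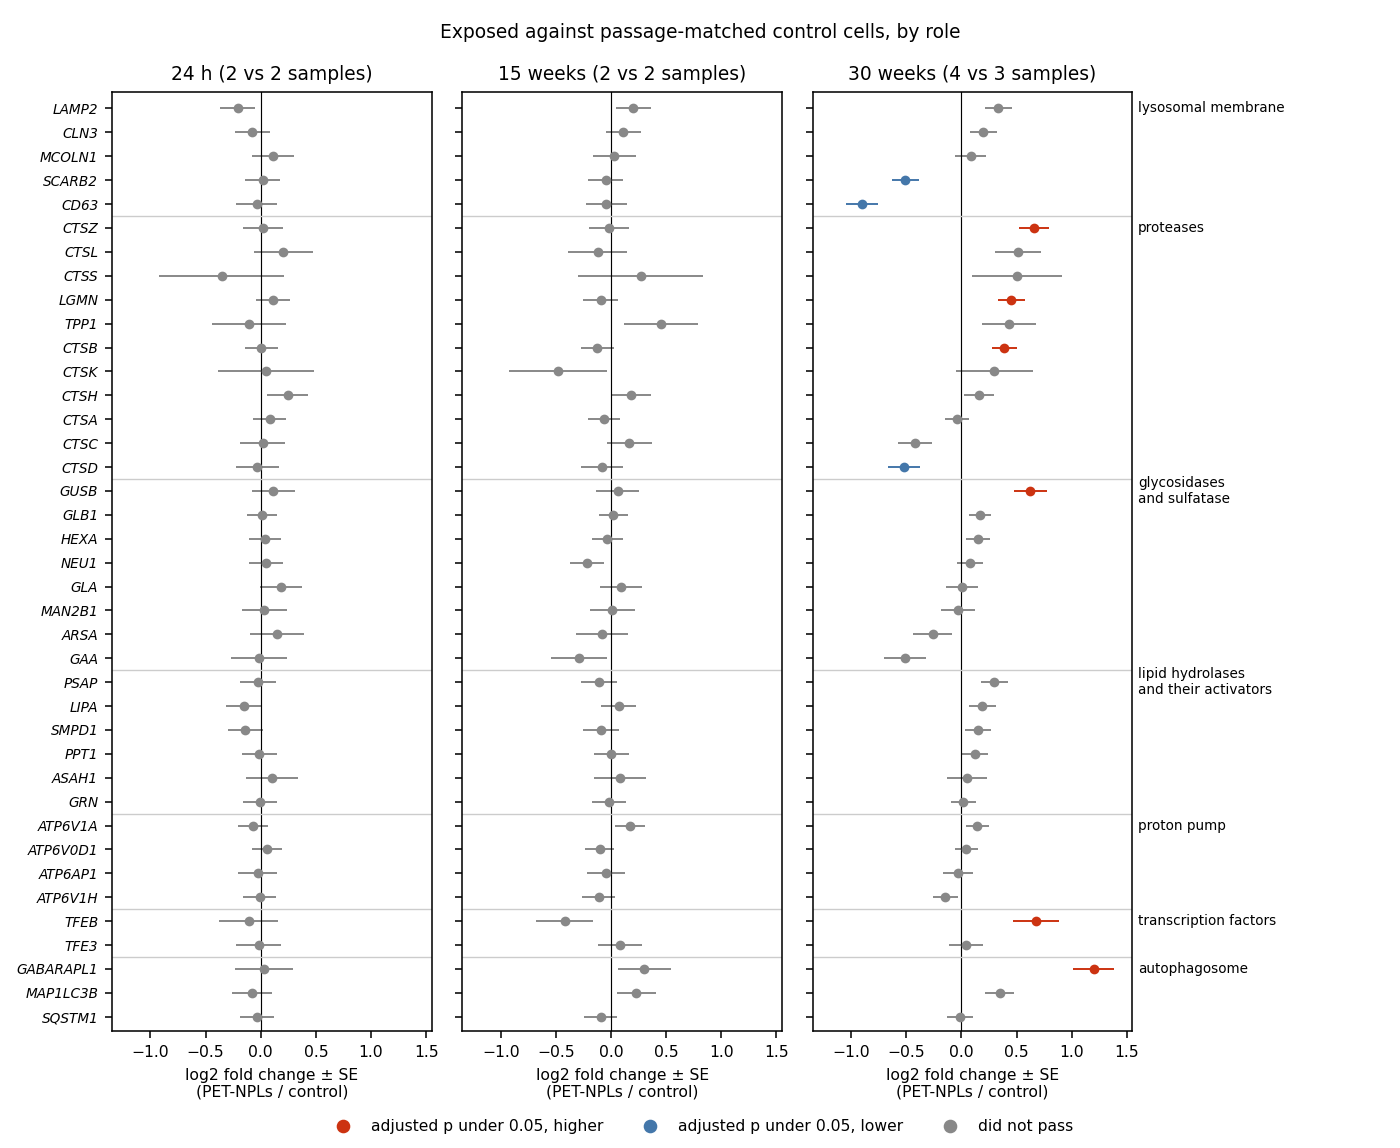
Log2 fold change of exposed over control cells with its SE for the 39 genes, grouped by role, at the 3 time points; red and blue points passed the adjusted p of 0.05. All points are grey at 24 h and 15 weeks, while at 30 weeks 6 are red, with GABARAPL1 farthest to the right, and 3 are blue, with CD63 farthest to the left.

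Among the autophagosome genes, GABARAPL1, a member of the GABARAP family that is joined to the lipid of the autophagosome membrane, had the largest difference of the 39. At 30 weeks it stood at 16.5, 18.1 and 20.1 CPM in the controls and at 41.8, 36.3, 51.1 and 38.0 CPM in exposed replicates 1 to 4. Every exposed sample was above every control. The log2 fold change was 1.20 ± 0.19 (SE), or 2.30-fold, with an edgeR adjusted p of 0.000217, and it passed in all 26 alternatives run. The gene (chr12:10212877-10223128, GRCh38.p14) has a near-identical copy, GABARAPL3, which did not exceed 0.0724 CPM in any sample.

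MAP1LC3B, which encodes the LC3 protein most used to mark autophagosomes, measured 59.3, 68.8 and 65.4 CPM in the 30-week controls and 91.2, 64.1, 83.0 and 90.2 CPM in exposed cells. Exposed replicate 2 lay within the controls and the other 3 lay above them. Its log2 fold change of 0.35 ± 0.13 did not pass (edgeR adjusted p = 0.0663). It passed in 3 of 26 alternatives, among them with 2 surrogate variables (0.41, adjusted p = 0.00516) and without exposed replicate 2 (0.45, 0.00294). Reads of MAP1LC3B may be shared with its near-identical copy MAP1LC3B2, which had mean levels of 8.05 CPM in the controls and 11.3 CPM in exposed cells. SQSTM1, the cargo receptor p62 that is itself degraded by autophagy, stood at 990.0, 842 and 757 CPM in controls and at 860.3, 889, 826 and 852 CPM in exposed cells. All 4 exposed samples lay inside the range of the controls, with a log2 fold change of -0.01 ± 0.12 and an edgeR adjusted p of 0.964.

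TFEB, the main transcription factor of lysosomal genes, was a low transcript, at 2.88, 1.91 and 3.47 CPM in the 30-week controls and at 4.31, 3.54, 4.80 and 4.96 CPM in exposed cells. The lowest exposed sample was just above the highest control. The log2 fold change was 0.68 ± 0.21 (edgeR adjusted p = 0.0295). This call was lost without control replicate 1 (0.72, adjusted p = 0.0681), control replicate 2 (0.47, 0.128), exposed replicate 1 (0.69, 0.0513), exposed replicate 3 (0.63, 0.0675) or exposed replicate 4 (0.62, 0.0695), and with each time point fitted alone (0.66, 0.0897). TFE3, which binds the same element, measured 48.6, 37.6 and 55.0 CPM in controls and 58.5, 37.0, 48.3 and 50.3 CPM in exposed cells. The groups overlapped throughout, and its log2 fold change was 0.04 ± 0.15 (adjusted p = 0.875).

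Of the 11 proteases, 3 were higher and 1 was lower in exposed cells at 30 weeks. CTSZ (cathepsin Z, a carboxypeptidase; chr20:58995185-59007254) stood at 44.7, 42.0 and 56.8 CPM in controls and at 81.9, 63.2, 84.6 and 72.2 CPM in exposed cells. LGMN (legumain, an endopeptidase that cuts after asparagine; chr14:92703809-92748627) measured 27.1, 25.4 and 26.4 CPM in controls and 37.6, 29.5, 37.8 and 39.3 CPM in exposed cells. CTSB (cathepsin B, among the most abundant lysosomal cysteine proteases) was at 475, 485 and 511 CPM in controls and at 689, 549, 694 and 634 CPM in exposed cells. In all 3 genes the exposed samples lay above the controls, and exposed replicate 2 was the lowest of the 4. Log2 fold changes were 0.66 ± 0.14 for CTSZ (edgeR adjusted p = 0.00270), 0.45 ± 0.12 for LGMN (0.0131) and 0.39 ± 0.11 for CTSB (0.0222). CTSB did not pass without control replicate 1 (log2 fold change 0.37, adjusted p = 0.0601), control replicate 2 (0.38, 0.0568), exposed replicate 1 (0.35, 0.0610) or exposed replicate 3 (0.35, 0.0606), with each time point fitted alone (0.38, 0.124) or with the replicate block (0.39, 0.0710). LGMN passed in 25 of 26 alternatives and not with each time point fitted alone (0.44, 0.0635).

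CTSD, the lysosomal aspartic protease cathepsin D (chr11:1752755-1763927), went the other way. It stood at 163, 117 and 164 CPM in the 30-week controls and at 120, 80.3, 99.9 and 113 CPM in exposed cells. The ranges overlapped by 1 sample on each side, exposed replicate 1 being above control replicate 2. The log2 fold change was -0.52 ± 0.14 (edgeR adjusted p = 0.0160). The call was lost without control replicate 1 (-0.44, 0.0889) or control replicate 3 (-0.44, 0.0652), with exposed replicate 2 and control replicate 1 both left out (-0.33, 0.0631), and with each time point fitted alone (-0.53, 0.0762).

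The other 7 proteases did not pass at 30 weeks. CTSL, a cysteine protease, had a log2 fold change of 0.51 ± 0.21 (edgeR adjusted p = 0.0883) and was at 215 CPM in exposed replicate 2, against 97.7 to 115 CPM in the other exposed samples. Without exposed replicate 2 the change was 0.19 (adjusted p = 0.188), and with 2 surrogate variables also 0.19 (0.213). It passed in 3 of 26 alternatives, without exposed replicate 4 (0.65, adjusted p = 0.0360), with no filter (0.52, 0.0439) and with the replicate block (0.57, 0.0280). TPP1, a tripeptidyl peptidase, was at 0.43 ± 0.24 and ran from 0.23 to 0.67 over the 26 alternatives. It passed in 3 of them, among them with 2 surrogate variables (0.67, adjusted p = 0.000215) and without exposed replicate 2 (0.63, 0.00659). CTSC, which activates the serine proteases of immune cells, was at -0.42 ± 0.15 and passed in 7 of 26. Among these were 2 surrogate variables (-0.49, adjusted p = 0.00141), upper-quartile scaling (-0.45, 0.0284) and the fits without exposed replicate 2 (-0.58, 0.00131) or control replicate 3 (-0.55, 0.0205). CTSA, CTSH, CTSK and CTSS had values between -0.04 and 0.50, and CTSK and CTSS did not exceed 2.20 CPM in any sample.

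Among the 5 membrane proteins, 2 were lower in exposed cells at 30 weeks. CD63, a tetraspanin of late endosomes, lysosomes and exosomes (chr12:55723535-55730041), stood at 1299.6, 1029.5 and 948 CPM in controls and at 523, 699, 611 and 508 CPM in exposed cells. SCARB2, the receptor that carries glucocerebrosidase to the lysosome (chr4:76158737-76234532), measured 156, 176 and 180 CPM in controls and 139, 102, 109 and 130 CPM in exposed cells. Neither gene had an exposed sample that reached the controls. The log2 fold change of CD63 was -0.90 ± 0.14, so that its level in controls was 1.87 times that in exposed cells (edgeR adjusted p = 0.000247). That of SCARB2 was -0.51 ± 0.12 (adjusted p = 0.00630), and both passed in all 26 alternatives. The 561 tested genes of chromosome 4, where SCARB2 lies, had a median log2 fold change of -0.32, the lowest of all chromosomes, while that of chromosome 12, which holds CD63, was 0.07. The part of the chromosome in the value of SCARB2 was not tested.

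LAMP2, a major glycoprotein of the lysosomal membrane, was at 155, 195 and 175 CPM in controls and at 226, 223, 218 and 215 CPM in exposed cells. The groups did not overlap, yet the log2 fold change of 0.34 ± 0.12 missed the threshold (edgeR adjusted p = 0.0573). It passed in 6 of 26 alternatives. On all samples these were DESeq2 (0.34, adjusted p = 0.0323) and limma-voom (0.34, 0.0460). The others were without control replicate 2 (0.42, 0.0399), without exposed replicate 2 (0.33, 0.0382) and without either exposed sample of 24 h (0.34 each). MCOLN1, a calcium channel of the lysosome, and CLN3, a transmembrane protein lost in a form of Batten disease, had log2 fold changes of 0.08 ± 0.14 and 0.20 ± 0.12.

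Of the 8 glycosidases and sulfatases, GUSB alone passed at 30 weeks. GUSB encodes beta-glucuronidase, which degrades glycosaminoglycans (chr7:65960684-65982213). It stood at 25.9, 32.4 and 37.1 CPM in controls and at 51.8, 36.8, 52.9 and 54.5 CPM in exposed cells. Exposed replicate 2 lay just below the highest control and the other 3 lay well above. The log2 fold change was 0.62 ± 0.15 (edgeR adjusted p = 0.00638), and it passed in all 26 alternatives. Related pseudogenes could share its reads; the most abundant of the 5 examined, GUSBP1, averaged 37.6 CPM in controls and 24.2 CPM in exposed cells, which is the opposite order.

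GAA, the enzyme that releases glucose from glycogen, was at -0.51 ± 0.19 on the log2 scale (edgeR adjusted p = 0.0648) and did not pass in 22 of 26 alternatives. It was smaller with 2 surrogate variables (-0.20, adjusted p = 0.322) and with exposed replicate 2 and control replicate 1 both left out (-0.23, 0.343), and it passed without control replicate 2 (-0.68, 0.0225), without exposed replicate 4 (-0.66, 0.0217), with no filter (-0.50, 0.0369) and with the replicate block (-0.67, 0.00239). GLB1, HEXA, GLA, MAN2B1, NEU1 and ARSA lay between -0.26 and 0.17. None of the 6 lipid hydrolases and activators passed, with log2 fold changes from 0.02 for GRN to 0.30 ± 0.12 for PSAP. PSAP, the precursor of the saposins that present lipids to hydrolases, measured 879, 881 and 1020.1 CPM in controls and 1178, 957, 1229 and 1202 CPM in exposed cells. It passed in 4 of 26 alternatives, among them DESeq2 (0.30, adjusted p = 0.0285), 2 surrogate variables (0.33, 0.0216) and without exposed replicate 2 (0.38, 0.0118). None of the 4 proton pump genes passed, and their median absolute change was the smallest by role, 0.09, from -0.15 for ATP6V1H to 0.14 for ATP6V1A.

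**Figure D2:**
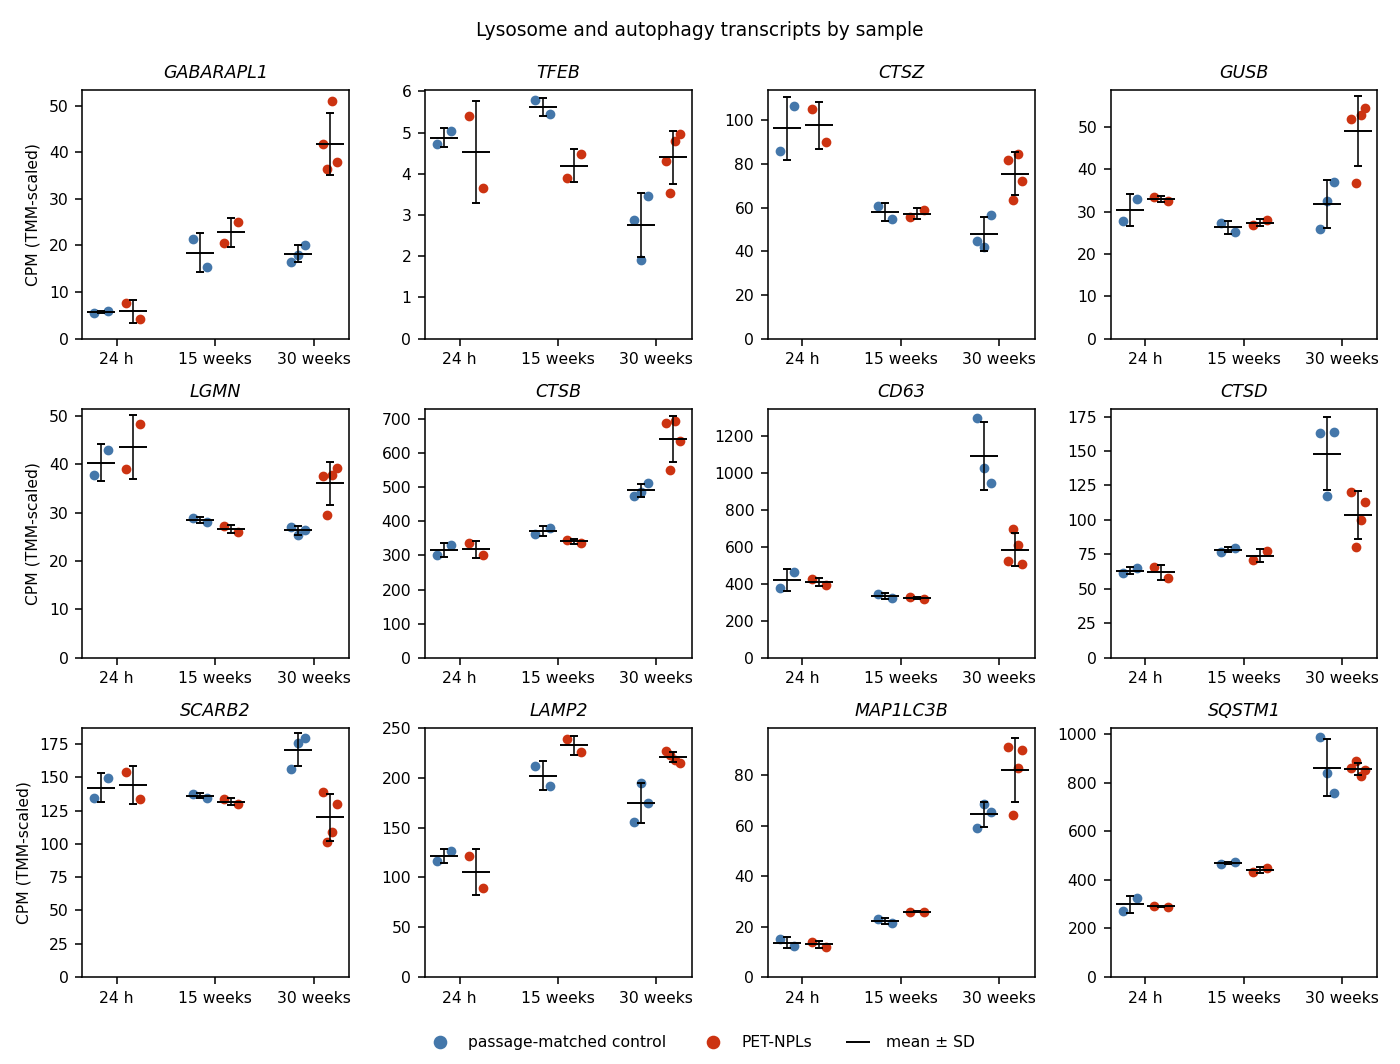
CPM after TMM scaling of the 9 genes that passed at 30 weeks and of LAMP2, MAP1LC3B and SQSTM1 in each of the 15 samples, with the mean and SD of each group. At 30 weeks GABARAPL1 sits at 36.3 to 51.1 CPM in exposed cells against 16.5 to 20.1 CPM in controls, and CD63 at 508 to 699 CPM against 948 to 1299.6 CPM.

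Whether the effect of exposure grew between 15 and 30 weeks was tested as the difference of the changes at these times, each taken within its batch. CD63 was the only member that passed, 1 of 39 (2.56%) against 4.74% of all genes. Its exposed and control samples overlapped at 15 weeks, at 329 and 319 CPM against 345 and 322 CPM, and the difference of the log2 fold changes was -0.86 ± 0.24 (edgeR adjusted p = 0.0494). This call stood at the threshold. It was lost in 15 of 25 alternatives, with adjusted p from 0.000286 to 0.227 and a difference from -0.95 to -0.71. Leaving out any 1 library other than exposed replicate 2 (adjusted p = 0.00447) or control replicate 3 (0.0317) of 30 weeks ended it. TFEB had the largest difference, 1.10 ± 0.33, at an adjusted p of 0.0823, followed by GABARAPL1 at 0.90 ± 0.30 (0.122). Without exposed replicate 2 the count of members was 8, against 9.10% of all genes.

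The change over time was then compared within each arm. The marker lists differed between the times as well. The airway epithelial markers summed to 1986 to 2296 CPM at 24 h, 854 to 898 CPM at 15 weeks and 314 to 412 CPM at 30 weeks in controls, and to 2232 to 2262, 826 to 1036 and 880 to 1097 CPM in exposed cells. The fibroblast markers summed to 232 to 253, 296 to 300 and 478 to 602 CPM in controls and to 224 to 258, 256 to 296 and 374 to 436 CPM in exposed cells, and the part of either list in the changes below was not tested.

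From 24 h to 15 weeks, which lay in 1 batch, 10 of the 39 passed in controls and 9 in exposed cells (25.6% and 23.1%), shares close to the 24.9% and 26% of all genes. In the controls 8 members rose and 2 fell (20.5% and 5.13%, against 12.7% and 12.2% of all genes). In exposed cells 6 rose and 3 fell (15.4% and 7.69%, against 13.5% and 12.5%). The 3 autophagosome genes rose in both arms. GABARAPL1 went from 5.58 and 5.88 CPM to 21.5 and 15.5 CPM in controls and from 7.61 and 4.12 CPM to 20.5 and 25.1 CPM in exposed cells, log2 fold changes of 1.69 ± 0.25 and 1.96 ± 0.26 (edgeR adjusted p = 0.000140 and 3.31e-05). No sample of 15 weeks reached down to a sample of 24 h in this gene.

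On the log2 scale MAP1LC3B rose by 0.69 (controls) and 1.00 (exposed cells), and SQSTM1 by 0.65 and 0.59. LAMP2 rose in both arms as well, from 117 and 126 CPM to 212 and 192 CPM in controls and from 121 and 88.9 CPM to 239 and 226 CPM in exposed cells. The V-ATPase subunits ATP6V1A and ATP6V1H, parts of the complex that splits ATP, gained 0.68 and 0.62 in controls and 0.92 and 0.52 in exposed cells. The proteases CTSZ and LGMN fell in both arms, with log2 fold changes of -0.73 and -0.51 in controls and -0.77 and -0.71 in exposed cells. CTSL and GRN rose at an adjusted p under 0.05 in controls alone and MCOLN1 fell in exposed cells alone, and the difference between the arms was not tested. None of the 8 glycosidases and sulfatases passed in either arm. LAMP2, ATP6V1A and GABARAPL1 kept their calls in every leave-one-out fit in controls, as did these 3 and MAP1LC3B in exposed cells, while the other 7 and 5 calls were lost without at least 1 library. The counts moved with single libraries. They were lower in fits that left 1 sample of 24 h or 15 weeks in a compared group. Without exposed replicate 2 of 30 weeks they were 15 in controls and 16 in exposed cells, against 33.4% and 34.3% of all genes.

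From 15 to 30 weeks, 19 members rose and 4 fell in the controls (48.7% and 10.3%, against 25.6% and 24.6% of all genes). In exposed cells 23 rose and 2 fell (59.0% and 5.13%, against 23.3% and 22.7%). The median log2 fold change of the 39 was 0.40 in controls and 0.48 in exposed cells, against 0.01 and 0.00 for all genes. Of these genes 18 rose in both arms, PPT1 and ATP6V1A fell in both, and none moved in opposite directions. Beyond the 39, rises in both arms were counted only for tested genes with a promoter sequence. There 20.9% of genes with the motif CACGTG and 16.9% of those without it rose in both arms. The members with a promoter sequence gave 7 of 8 and 8 of 20 in the same order. Shares of all genes that fell in both arms or moved in opposite directions were not counted. Over the leave-one-out fits 17 of the 23 calls in controls and 19 of the 25 in exposed cells held throughout, and those lost in some fit were ATP6AP1, ATP6V0D1, CTSB, CTSC, CTSL and PPT1 in controls and ATP6AP1, CTSD, CTSZ, GABARAPL1, LGMN and PPT1 in exposed cells. These changes cross from batch 1 to batch 2, and time and batch cannot be told apart.

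Members of every role except the 2 transcription factors were among those that rose in each arm. TPP1 had the largest change, from 6.54 and 8.32 CPM to 35.5 to 48.0 CPM in controls, a log2 fold change of 2.46 ± 0.33 (edgeR adjusted p = 1.95e-05), and one of 2.44 ± 0.31 in exposed cells. MAP1LC3B had rises of 1.54 ± 0.17 and 1.66 ± 0.16 in the same order, and its copy MAP1LC3B2 went from means of 2.61 and 2.65 CPM to 8.05 and 11.3 CPM. SQSTM1 rose by 0.88 and 0.96, from 431 to 474 CPM over both arms at 15 weeks to 757 to 990.0 CPM. Among the glycosidases, NEU1 (the lysosomal sialidase) rose by 1.28 and 1.57, and ARSA (a sulfatase of myelin lipids) by 1.29 and 1.11. SMPD1, the acid sphingomyelinase, rose by 1.20 and 1.44, and GRN, the progranulin precursor, by 1.03 and 1.06.

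CD63 rose in both arms, from 345 and 322 CPM to 948 to 1299.6 CPM in controls (log2 fold change 1.71 ± 0.18) and from 329 and 319 CPM to 508 to 699 CPM in exposed cells (0.85 ± 0.17). Its lower level in exposed cells at 30 weeks was thus the smaller of 2 rises. TFEB, in contrast, fell in controls, from 5.78 and 5.46 CPM to 1.91 to 3.47 CPM, by 1.03 on the log2 scale (edgeR adjusted p = 0.00223). In exposed cells TFEB stood at 3.91 and 4.48 CPM at 15 weeks and at 3.54 to 4.96 CPM at 30 weeks, with a log2 fold change of 0.07 ± 0.23. GABARAPL1 was at -0.02 ± 0.22 in controls and rose in exposed cells (0.88 ± 0.21, edgeR adjusted p = 0.00330, and 0.0635 without exposed replicate 1 of 15 weeks). CTSZ, LGMN, GUSB and PSAP likewise passed in exposed cells alone, and CTSC and CTSL, with TFEB, in controls alone. By the test of the difference between arms, CD63 alone of all these passed.

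**Figure D3:**
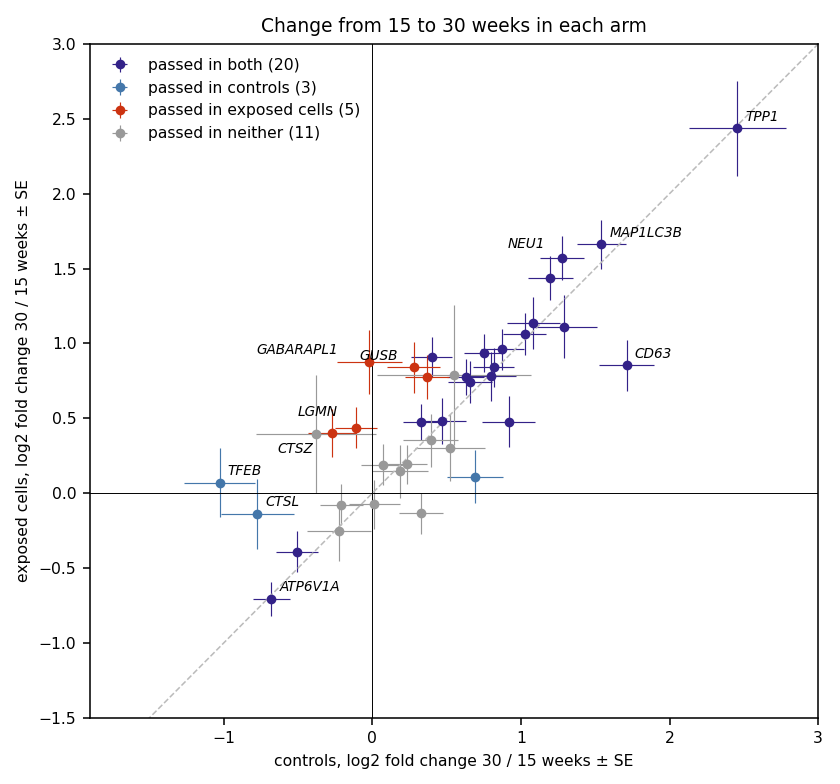
Log2 fold change from 15 to 30 weeks in controls (horizontal) and in exposed cells (vertical) for the 39 genes, each with its SE; the dashed line marks equal change, and colors give the arms in which a gene passed. TPP1 lies on the line near 2.4 in both arms, CD63 lies to the right of it at 1.71 and 0.85, and GABARAPL1 and TFEB lie to the left of it.

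**Figure D4:**
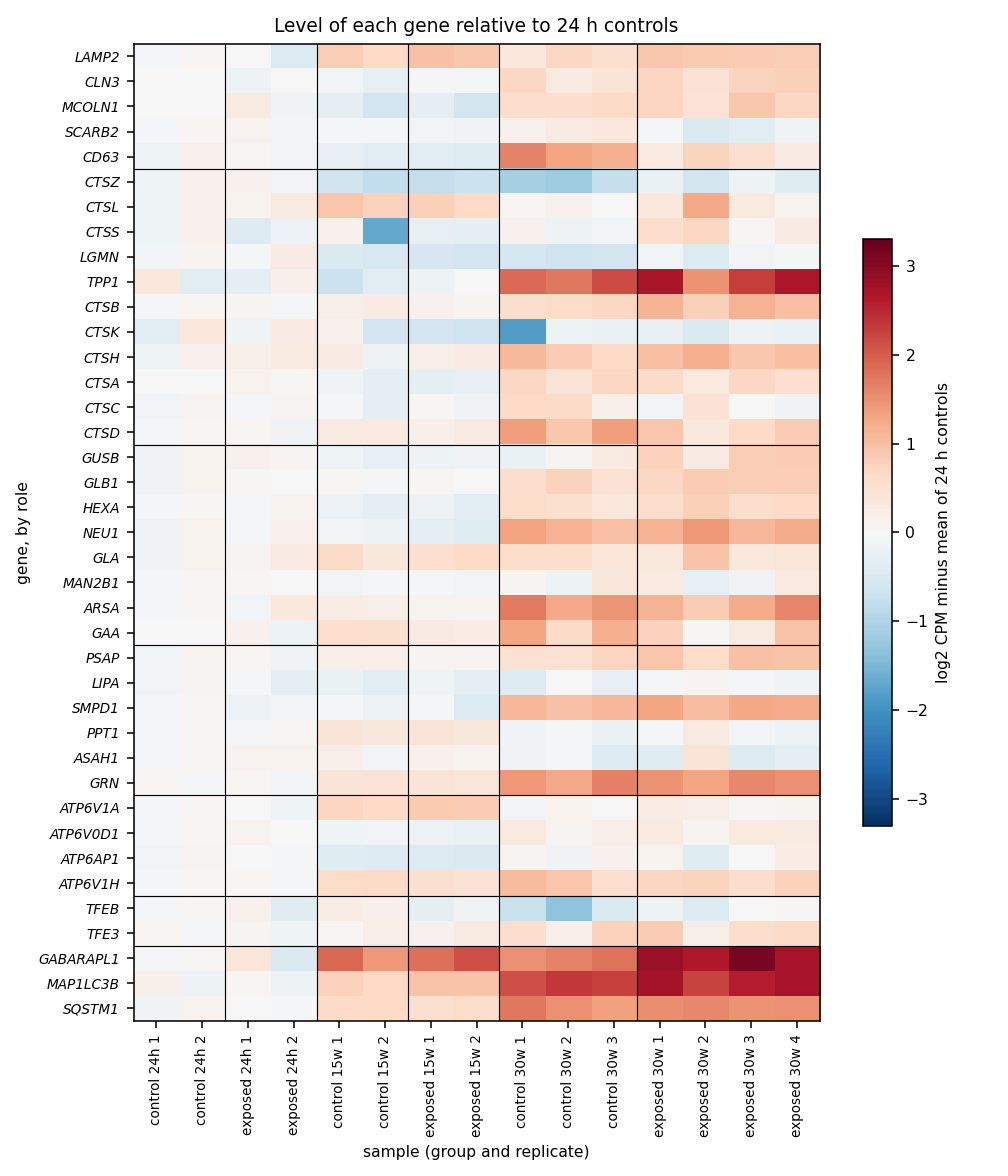
Log2 CPM of the 39 genes in each of the 15 samples relative to the mean of the 24 h controls, with rows by role and columns by group. The samples of 24 h are pale, GABARAPL1, MAP1LC3B and LAMP2 turn red at 15 weeks in both arms, and most rows are red at 30 weeks, TPP1 and MAP1LC3B most strongly.

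The 39 genes together took 3617 ± 297 CPM (SD, n = 2) in controls and 3603 ± 166 CPM (n = 2) in exposed cells at 24 h. At 15 weeks the sums were 4099 ± 81.0 CPM (n = 2) and 3998 ± 39.5 CPM (n = 2), and at 30 weeks 6101 ± 276 CPM (n = 3) and 6093 ± 116 CPM (n = 4). Both arms stood higher at each later time, with no overlap between times under any of 6 scalings, and within each time the difference between arms was smaller than the spread of the samples, except at 15 weeks, where the exposed samples (3970 and 4026 CPM) lay just under the controls (4042 and 4156 CPM). The closeness of the sums at 30 weeks depended on the scaling. With the library size alone, under which the median of all genes shifted by 0.18 between the arms, the sum was 4744 to 5426 CPM in controls and 5528 to 6430 CPM in exposed cells. The same scaling shifted the median of all genes from 15 to 30 weeks by -0.28 in controls and -0.12 in exposed cells, with 0.02 and 0.32 for the 39. Under it 21 of the 39 stood higher in controls at 30 weeks than at 15 weeks (53.8%, against 34.3% of all genes) in place of 29 (74.4%, against 50.6%), and ATP6V0D1 was the 1 called gene whose direction turned.

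**Figure D5:**
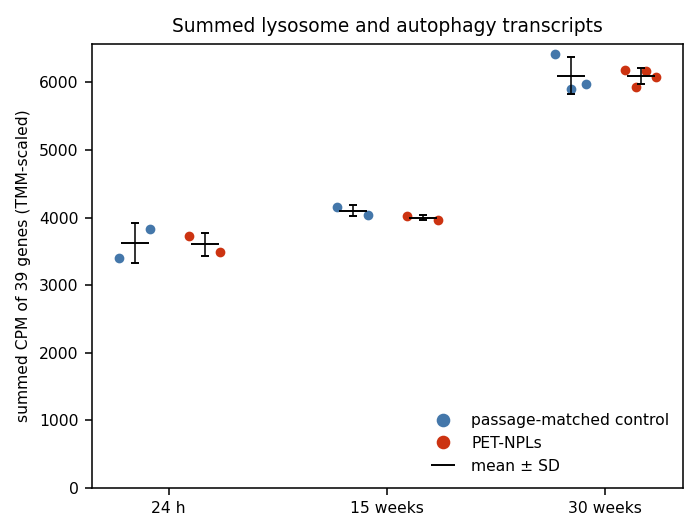
Summed CPM of the 39 genes in each sample after TMM scaling, with the mean and SD of each group. The means of controls and exposed cells are 3617 and 3603 CPM at 24 h, 4099 and 3998 CPM at 15 weeks and 6101 and 6093 CPM at 30 weeks.

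A wider list of 116 other lysosome and autophagy genes, all of them tested, was counted in the same way. At 30 weeks 11 were higher and 11 lower in exposed cells (9.48% each way, against 12% and 11.7% of all genes), with a median log2 fold change of 0.01. The 4 largest higher were ULK2, a kinase that starts autophagy (0.86 ± 0.15, edgeR adjusted p = 0.000541), MITF, a relative of TFEB (0.69 ± 0.13, 0.000953), GM2A, the activator of ganglioside breakdown (0.53 ± 0.10, 0.000899), and SLC17A5, the sialic acid exporter (0.53 ± 0.13, 0.00692). The 4 largest lower were CTSO, a little-studied cathepsin (-1.62 ± 0.33, 0.00224), MAP1LC3A, an LC3 protein (-0.82 ± 0.17, 0.00202), PLD3, a lysosomal nuclease (-0.61 ± 0.14, 0.00381), and ATP6V0B, a proteolipid subunit of the proton pump (-0.59 ± 0.17, 0.0173). ULK2 averaged 12.4 ± 2.96 CPM (SD, n = 3) in controls and 22.5 ± 1.75 CPM (n = 4) in exposed cells, and MAP1LC3A 30.0 ± 9.86 CPM and 17.0 ± 0.99 CPM, and the samples of the 2 groups overlapped in neither gene. GABARAP, named after its value was seen, was also lower (-0.54, adjusted p = 0.00452). The LC3 and GABARAP genes thus moved in both directions, GABARAPL1 up and MAP1LC3A and GABARAP down.

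From 24 h to 15 weeks, 12 genes of the wider list rose and 17 fell in controls (10.3% and 14.7%, against 12.7% and 12.2% of all genes), and 10 rose and 17 fell in exposed cells (8.62% and 14.7%, against 13.5% and 12.5%). From 15 to 30 weeks 42 rose and 25 fell in controls (36.2% and 21.6%, against 25.6% and 24.6% of all genes), and 47 rose and 19 fell in exposed cells (40.5% and 16.4%, against 23.3% and 22.7%). Of 27 other lysosomal hydrolases, 13 rose and 1 fell in controls over this later step (48.1% and 3.7%), and 14 rose and 0 fell in exposed cells (51.9% and 0%). Over the earlier step the same 27 gave 5 rises and 6 falls in controls and 3 and 7 in exposed cells. Of 20 other membrane and sorting genes, 9 rose and 1 fell in each arm (45% and 5%) from 15 to 30 weeks. Of 41 other genes of the autophagy machinery, 8 rose and 17 fell in controls (19.5% and 41.5%), and 12 rose and 15 fell in exposed cells (29.3% and 36.6%). The 14 other subunits of the proton pump gave 5 rises and 4 falls in controls and 5 and 2 in exposed cells, and the 14 genes that regulate TFEB gave 7 and 2 and then 7 and 1. Differences between these lists were not tested.

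The promoter sequences were searched for the element that TFEB and TFE3 bind, since it is shared by many lysosomal genes. The motifs were the E-box CACGTG and the longer palindrome TCACGTGA, which contains the E-box; both read the same on either strand. RefSeq promoter windows of 250 bases before to 50 bases after the gene start (GRCh38.p14) matched 28 of the 39 genes. The E-box was present in 8 of these (28.6%), against 20.8% of 96 windows of the wider list and 8.51% of 18304 windows of all genes. The longer palindrome was present in 5 (17.9%), against 11.5% and 1.29%. A match is a description of the sequence and does not show binding.

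Of the genes that passed at 30 weeks, CTSD and CD63, both lower in exposed cells, held the E-box and the third lower gene, SCARB2, did not. It was in 0 of the 4 windows of genes that were higher and in 6 of the 21 windows of members that did not pass. Over all tested genes it was in 10.1% of the windows of genes that were higher, 10.1% of those that were lower and 9.48% of the rest. These 2 stretches of 30 bases are printed 5′ to 3′ on the strand of the gene with the motif in capitals. They lie on the minus strand at chr11:1763957-1763986 and chr12:55729172-55729201. The motif starts at position -47 (CTSD) and -180 (CD63) from the start used for the window. The stretch of CD63 lies inside the gene span of chr12:55723535-55730041, so its window was set from a start within that span.
CTSD: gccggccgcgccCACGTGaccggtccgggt
CD63: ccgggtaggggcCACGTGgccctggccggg

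The 5 genes with the longer palindrome were MCOLN1, CLN3, CTSA, GAA and ATP6V0D1, and 1 stretch of each is shown because these genes hold the longer motif. They lie at chr19:7522571-7522600 (plus strand), chr16:28492058-28492087 (minus), chr20:45891298-45891327 (plus), chr17:80101493-80101522 (plus) and chr16:67481199-67481228 (minus). Capitals mark the 8 bases of the palindrome.
MCOLN1: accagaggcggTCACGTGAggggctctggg
CLN3: cgcgggtgctgTCACGTGAtccgacaaacg
CTSA: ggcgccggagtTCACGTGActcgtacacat
GAA: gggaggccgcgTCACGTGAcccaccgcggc
ATP6V0D1: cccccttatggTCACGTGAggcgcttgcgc

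None of these 5 passed between exposed and control cells at 30 weeks. From 15 to 30 weeks, MCOLN1, CLN3, CTSA and ATP6V0D1 rose in both arms after TMM scaling, 4 of 5 with the longer palindrome, against 11 of 23 without it. For the E-box the counts were 7 of 8 with it and 8 of 20 without it. Over all 12504 tested genes with a window, 23.3% of those with the longer palindrome and 17.2% of those without it rose in both arms, and for the E-box the shares were 20.9% and 16.9%. MCOLN1 rose by 1.08 ± 0.18 and 1.14 ± 0.17 on the log2 scale in controls and exposed cells, CTSA by 0.82 and 0.84, CLN3 by 0.66 and 0.74, and ATP6V0D1 by 0.33, a direction that turned with the library size alone, and 0.48. GAA was at 0.52 and 0.30 and passed in neither arm. No test was made of these counts.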

How the data were processed

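RNA was sequenced from 15 samples of BEAS-2B cells. The authors cleaned the reads with Rfastp, and Rsubread served for mapping to GRCh38 and for counting (the submitters' processing notes name featureCounts and hg38). The deposited values are raw counts per gene, not normalized. The strand setting and the treatment of reads that map to several places are not given in the sources used here, so counts of near-identical or overlapping genes are uncertain. Entrez numbers were matched to RefSeq symbols (27745 of 28395). Per the labels, samples fell into 6 groups.

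In R 4.3.3, filterByExpr kept 16740 genes, library sizes were corrected by TMM, and edgeR 4.0.16 fitted a quasi-likelihood model with 1 mean per group to all 15 samples. P-values were adjusted over all genes tested (Benjamini-Hochberg, threshold 0.05), and 2 was the prior count of log2 CPM. Tested on simulated data for the 30-week comparison with 16501 genes, the fit found 90 of 100 genes changed 2-fold. It found 99 of 100 changed 4-fold, with 9 false calls. The simulated samples of a group differed only by independent random counts, with no library apart as exposed replicate 2 was. Smaller changes were not simulated, and every member called at 30 weeks except GABARAPL1 changed less than 2-fold. The figures therefore do not carry over to these calls.

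The 39 genes, the wider list and the marker lists were chosen with earlier results of these data known. Values per sample are given for members that passed between exposed and control cells (at most the 12 largest at 30 weeks) and for LAMP2, CTSD, SQSTM1, MAP1LC3B, GABARAPL1, TFEB and TFE3. Of the wider list, the 4 genes with the largest change each way are named. PSAP, TPP1 and others are given where a library or a method decided their call. Alternatives were DESeq2 1.42.0, limma-voom (limma 3.58.1) with and without 2 surrogate variables (sva 3.50.0), each time point alone, other filters (none, or 10 counts in each library), upper-quartile scaling, removal of 6 small noncoding RNAs, thinning to the smallest library, a replicate block, stricter thresholds (adjusted p of 0.01, or a 2-fold change), and each replicate left out. Leaving out exposed replicate 2 and control replicate 1 at 30 weeks together, and scaling by library size alone, were added after seeing the data. Every per-sample column of the table was used.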

Additional observations from a re-analysis of the deposited data

Results flagged for a closer look

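Among the 4 exposed samples of 30 weeks, 6 of the 39 genes had 1 sample far from the others by Dixon's ratio of the gap to the range, and 5 of these 6 involved exposed replicate 2. Chance gives such a flag in about 1 of 20 groups. In exposed replicate 2, CTSC was high at 63.2 CPM against 42.1 to 44.9 CPM in the other 3 samples (ratio 0.868), and CTSL was high at 215 CPM against 97.7 to 115 CPM (0.857). GLA, which removes terminal galactose from glycolipids, was high there at 72.5 CPM against 48.1 to 50.6 CPM (0.896). ASAH1, the acid ceramidase, was high at 67.4 CPM against 36.7 to 40.8 CPM (0.868). GUSB was low in it, at 36.8 CPM against 51.8 to 54.5 CPM (0.848). GLB1, the beta-galactosidase, was low in exposed replicate 1, at 125 CPM against 138 CPM in each of the others (0.969).

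The effect of exposure on CD63 differed between 30 and 15 weeks by the test of the difference itself, at -0.858 on the log2 scale. That call stood at the threshold (edgeR adjusted p = 0.0494). It was lost in most alternatives, among them without the 6 small noncoding RNAs and with the replicate block. The exposed samples of CD63 lay below every control at 30 weeks, and at 15 weeks the log2 fold change was -0.04.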

How the results depend on the processing

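The count of 0 members at 24 h and at 15 weeks held in all 28 alternatives. Of all genes, 0% passed at 24 h in these, and at 15 weeks up to 1.96%, with each time point fitted alone. At 30 weeks the count of 9 members (23.7% of all genes) became 14 with limma-voom and 2 surrogate variables (30.5%). It was 5 with each time point fitted alone (15.3%), 5 at an adjusted p under 0.01 (12.9%) and 1 at a fold change of at least 2 (8.74%). With each replicate of 30 weeks left out it was 6 to 14 (14.9% to 34.2%). For the difference between 30 and 15 weeks the count of 1 (4.74% of all genes) became 3 with DESeq2 (6.68%) and 8 with surrogate variables (13.4%). It was 7 with exposed replicate 2 and control replicate 1 of 30 weeks left out (8.09%). It was 0 without the 6 small noncoding RNAs (4.7%), at an adjusted p under 0.01 (2.41%) and at a fold change of at least 2 (3.93%). With each replicate of 30 weeks left out it was 0 to 8 (3.73% to 9.1%). From 24 h to 15 weeks the count of 10 in controls (24.9% of all genes) became 18 with surrogate variables (39.1%). It was 1 at a fold change of at least 2 (13%), and 9 to 15 with each replicate of 30 weeks left out (23.6% to 33.4%). That of 9 in exposed cells (26%) became 14 with DESeq2 (28.6%), 19 with surrogate variables (39.2%) and 18 with both libraries left out (37.6%). It was 3 at a fold change of at least 2 (13.4%), and 8 to 16 with each replicate of 30 weeks left out (24.7% to 34.3%). Fits that left 1 sample in a compared group gave lower counts in both arms. From 15 to 30 weeks a fold change of at least 2 left 9 of 23 in controls, while the share of all genes went from 50.3% to 23.9%. In exposed cells it left 7 of 25, while that share went from 46% to 15.8%. With each replicate of 30 weeks left out the counts were 22 to 27 (44.4% to 57.2%) and 22 to 29 (40.7% to 54.3%). Fits that left 1 sample of 15 weeks in a compared group gave lower counts. The thresholds lower the counts by their construction, and the cause of the other shifts was not tested.

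Of 2713 pairs of a member's value and an alternative, 2497 kept direction and side of the threshold, 142 lost and 32 gained significance, and 42 changed sign. The last were all genes that did not pass at 30 weeks. With surrogate variables CTSA became 0.088, GLA -0.13, MAN2B1 0.099, ARSA 0.0060, PPT1 -0.00050, ASAH1 -0.16, ATP6AP1 0.12 and SQSTM1 0.068. With both libraries left out CTSA became 0.085, GLA -0.12, MAN2B1 0.069, ASAH1 -0.16, ATP6AP1 0.12 and SQSTM1 0.089. GLA was -0.016 with limma-voom, -0.0070 with each time point alone, -0.0097 with at least 10 counts in every sample and -0.031 with upper-quartile scaling, under which GRN was -0.012. Over the leave-one-out fits these ran from -0.12 to 0.030 for CTSA, -0.063 to 0.55 for CTSK, -0.16 to 0.062 for GLA, -0.16 to 0.13 for MAN2B1, -0.0040 to 0.17 for NEU1, -0.078 to 0.14 for GRN, -0.20 to 0.14 for ASAH1, -0.016 to 0.11 for ATP6V0D1, -0.11 to 0.086 for ATP6AP1, -0.096 to 0.18 for TFE3 and -0.092 to 0.11 for SQSTM1.

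Whether the replicate numbers pair the samples could not be decided from so few samples. Same-numbered control and exposed samples of 30 weeks correlated in their deviations at -0.118, 0.303 and 0.098. Samples with different numbers gave -0.481 to 0.359. Same-numbered samples of 15 weeks gave 0.029 and those of 24 h -0.060. With 2 samples a group, pairs with the same and with different numbers are equal and opposite by construction. With the replicate block, 10 members passed at 30 weeks (19.9% of all genes) and 0 for the difference between 30 and 15 weeks (3.78%). Of 107 member values 91 kept direction and side, and SQSTM1 became 0.00022.

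With 2 samples a group, the smallest change over time that passed from 24 h to 15 weeks among the members was 0.44 (GRN in controls), and the simulation did not measure what the comparisons of exposed with control cells at these times could call. CTSK, CTSS and TFEB were the members with the fewest counts.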
